A study of Mus musculus with 5 samples.

Results

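Binding of NKX2-1 in mouse lung was compared between 2 antibodies, Millipore07-601 and Abcam133638, each used once for chromatin immunoprecipitation followed by sequencing (ChIP-seq). Their peak lists held 57763 and 57891 of the 197827 peaks of the series. Peaks of both lists that overlapped by at least 1 bp were merged into 67030 regions, of which 46956 were called in both lists, 10013 with Millipore07-601 only and 10061 with Abcam133638 only. All libraries are of lung tissue that was taken whole from mice of wild-type genotype on postnatal day 10. They comprise 4 antibodies against NKX2-1 with 1 library each (also Abcam133737 and Abcam76013) and 1 input of unprecipitated chromatin, and nuclei lysates were combined into pooled chromatin before immunoprecipitation, per the labels' protocol. What part of NKX2-1 each antibody recognises is not given in the sources used here. With 1 library per antibody no difference below has a replicate check and no p-value is given. Shares carry exact Clopper-Pearson intervals and ratios carry exact intervals for a ratio of tag counts, all at 95% and for counting error only. Whole lung mixes epithelial, endothelial, stromal and immune cells, so binding in fewer cells and weaker binding per cell cannot be told apart.

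NKX2-1 is a homeodomain transcription factor that marks the lung epithelium from its first appearance in the embryo and is needed for its branching and differentiation. In the alveoli it is present both in cuboidal alveolar type 2 (AT2) cells, where it activates the surfactant genes, and in alveolar type 1 (AT1) cells, the thin cells through which gas passes into the blood. Antibodies against one protein can differ in affinity, in access to their epitope in fixed chromatin and in what else they bind. ChIP-seq with several antibodies sets their regions side by side. With 1 library per antibody, a difference of reagent and a difference of immunoprecipitation or library cannot be told apart here.

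The antibodies differed at transcription starts, and 10 promoter sequences from regions on which that result rests are shown first. Each is the RefSeq window of 250 bases before to 50 bases after a transcription start in GRCm38.p6 (the build mm10), read 5′ to 3′ on the strand of the gene, with every CG dinucleotide in capitals. CG dinucleotides (CpG) are the sites of DNA methylation in mammals, and promoters rich in them are typical of broadly expressed genes. The rule for choosing the examples was set after values were seen. The first set holds the windows with the highest fold enrichment among regions called with Abcam133638 only whose summit lay inside a promoter window. They are Ppfia3 (chr7:45366970-45367269, minus strand), which encodes a liprin scaffold protein, Ptpn9 (chr9:56994718-56995017, plus strand), which encodes a tyrosine phosphatase, and Nfkb2 (chr19:46305445-46305744, plus strand), which encodes an NF-κB subunit, with 25, 32 and 20 CpG in 300 bases.
Ppfia3: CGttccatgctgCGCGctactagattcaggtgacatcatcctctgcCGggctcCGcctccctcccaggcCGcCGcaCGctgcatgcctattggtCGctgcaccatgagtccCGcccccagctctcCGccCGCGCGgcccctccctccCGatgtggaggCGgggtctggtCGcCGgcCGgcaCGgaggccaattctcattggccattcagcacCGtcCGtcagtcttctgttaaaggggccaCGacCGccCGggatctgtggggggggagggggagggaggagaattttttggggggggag
Ptpn9: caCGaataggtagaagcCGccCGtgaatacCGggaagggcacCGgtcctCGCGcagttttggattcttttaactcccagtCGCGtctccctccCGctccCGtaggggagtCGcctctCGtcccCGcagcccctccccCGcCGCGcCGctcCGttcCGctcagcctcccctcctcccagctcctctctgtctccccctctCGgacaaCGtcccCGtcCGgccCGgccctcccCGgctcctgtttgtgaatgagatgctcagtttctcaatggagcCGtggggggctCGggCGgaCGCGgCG
Nfkb2: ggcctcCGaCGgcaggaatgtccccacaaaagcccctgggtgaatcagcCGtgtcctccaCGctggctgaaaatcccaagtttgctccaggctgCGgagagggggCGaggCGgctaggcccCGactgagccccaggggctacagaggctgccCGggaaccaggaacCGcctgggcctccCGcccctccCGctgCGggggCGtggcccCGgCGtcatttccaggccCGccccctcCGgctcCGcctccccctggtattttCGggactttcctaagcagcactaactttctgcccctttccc

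The same rule for regions called with Millipore07-601 only gave Acox2 (chr14:8258790-8259089, minus strand), a peroxisomal oxidase gene, C77080 (chr4:129248394-129248693, minus strand) and Pml (chr9:58249737-58250036, minus strand), the gene of the PML nuclear bodies, with 2, 45 and 11 CpG. C77080 is a CpG-rich window in a class that mostly lay at windows poorer in CpG.
Acox2: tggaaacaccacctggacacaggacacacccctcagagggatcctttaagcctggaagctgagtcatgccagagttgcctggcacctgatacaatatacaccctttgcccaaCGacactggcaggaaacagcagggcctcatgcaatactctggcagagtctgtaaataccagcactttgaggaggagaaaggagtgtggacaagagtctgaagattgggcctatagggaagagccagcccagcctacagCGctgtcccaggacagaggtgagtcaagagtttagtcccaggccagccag
C77080: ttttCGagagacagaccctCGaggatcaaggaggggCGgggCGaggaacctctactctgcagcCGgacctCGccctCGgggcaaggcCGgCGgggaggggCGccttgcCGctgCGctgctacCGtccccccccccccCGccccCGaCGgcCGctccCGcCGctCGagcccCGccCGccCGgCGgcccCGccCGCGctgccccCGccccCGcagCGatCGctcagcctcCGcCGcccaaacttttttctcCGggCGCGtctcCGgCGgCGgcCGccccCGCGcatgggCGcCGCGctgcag
Pml: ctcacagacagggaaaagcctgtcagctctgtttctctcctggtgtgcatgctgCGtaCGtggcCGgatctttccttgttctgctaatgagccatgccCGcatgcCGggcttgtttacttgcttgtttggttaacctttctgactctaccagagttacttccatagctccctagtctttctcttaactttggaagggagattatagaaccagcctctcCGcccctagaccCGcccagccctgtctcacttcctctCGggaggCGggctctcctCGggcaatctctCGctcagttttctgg

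Among regions called in both lists with at least the median pileup, the lowest ratios of Millipore07-601 to Abcam133638 with a summit in a promoter window were at Ranbp6 (chr19:29812925-29813224, minus strand), which encodes an importin-like protein, and Hdgf (chr3:87906071-87906370, plus strand), which encodes a chromatin-associated growth factor, with 27 and 33 CpG. The highest were at Ulk1 (chr5:110810032-110810331, minus strand), an autophagy kinase gene, and S100g (chrX:162964550-162964849, minus strand), which encodes a vitamin D-dependent calcium-binding protein, with 26 and 3 CpG.
Ranbp6: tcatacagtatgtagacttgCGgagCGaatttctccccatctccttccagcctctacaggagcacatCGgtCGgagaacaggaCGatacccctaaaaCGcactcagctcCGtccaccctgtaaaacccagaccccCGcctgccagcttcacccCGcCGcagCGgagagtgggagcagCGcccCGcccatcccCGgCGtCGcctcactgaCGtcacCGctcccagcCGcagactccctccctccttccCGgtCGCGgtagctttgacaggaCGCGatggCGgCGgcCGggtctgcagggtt
Hdgf: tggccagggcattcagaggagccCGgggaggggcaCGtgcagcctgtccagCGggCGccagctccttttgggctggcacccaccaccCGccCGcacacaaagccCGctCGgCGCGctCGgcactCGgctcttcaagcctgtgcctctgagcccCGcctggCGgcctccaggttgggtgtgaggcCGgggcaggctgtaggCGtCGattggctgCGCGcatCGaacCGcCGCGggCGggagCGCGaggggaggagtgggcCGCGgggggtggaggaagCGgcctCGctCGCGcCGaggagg
Ulk1: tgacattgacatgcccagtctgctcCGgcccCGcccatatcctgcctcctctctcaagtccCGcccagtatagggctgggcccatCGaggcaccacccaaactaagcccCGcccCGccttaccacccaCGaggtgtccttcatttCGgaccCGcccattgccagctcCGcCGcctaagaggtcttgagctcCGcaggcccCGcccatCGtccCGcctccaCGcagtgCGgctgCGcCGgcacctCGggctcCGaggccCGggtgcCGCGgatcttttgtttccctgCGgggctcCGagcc
S100g: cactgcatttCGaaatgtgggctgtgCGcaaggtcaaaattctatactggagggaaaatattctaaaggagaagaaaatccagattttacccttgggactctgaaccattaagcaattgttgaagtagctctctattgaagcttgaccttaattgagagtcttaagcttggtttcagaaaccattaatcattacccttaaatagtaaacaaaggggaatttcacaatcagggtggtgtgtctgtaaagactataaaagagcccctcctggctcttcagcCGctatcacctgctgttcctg

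Depth was close between the libraries. After removal of redundant tags, which made up 20% and 16%, the Millipore07-601 library held 43031331 tags and the Abcam133638 library 44777214. The caller's fragment lengths were 162 and 152 bp, and these were also the lengths of the shortest peaks. Pileup is the authors' number of extended tags over the summit of a peak and is given here in tags per 1000000 filtered tags (RPM). The lowest pileup of a called peak was 12 tags for Millipore07-601 (0.279 RPM) and 13 tags for Abcam133638 (0.290 RPM). The single input held 10653749 filtered tags and was scaled up by 4.04 and 4.20. The median local background was 3.73 and 3.64 tags in the regions of both. These medians equal the genome-wide value set by each library's filtered tags, fragment length and effective genome size. They are thus not a local reading of the input. For Millipore07-601 the background was under 4.3 tags in 87.5% of the regions of both.

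The antibodies shared most of their regions and nearly all of the strong ones. Of the 67030 regions, 70.05% (interval 69.7% to 70.4%) were called in both lists, 14.9% with Millipore07-601 only and 15.0% with Abcam133638 only. Seen from each list, 82.7% of the Millipore07-601 peaks and 82.6% of the Abcam133638 peaks fell in regions of both. The single-antibody regions were weak. Their median pileup was 0.465 RPM (20 tags) for Millipore07-601 only and 0.424 RPM (19 tags) for Abcam133638 only. In regions of both lists the medians were 0.767 RPM (33 tags) with Millipore07-601 and 0.715 RPM (32 tags) with Abcam133638. A fold enrichment over 10, as the authors' caller gave it, was reached by 12078 Millipore07-601 values and 11166 Abcam133638 values in regions of both, but by 2 regions of Millipore07-601 only and 4 of Abcam133638 only. The share with a −log10 q under 5 was 33.7% and 35.4% in the single-antibody classes, against 6.54% (Millipore07-601 values) and 6.06% (Abcam133638 values) in regions of both. Median lengths were 342 bp for merged regions of both lists, 195 bp for Millipore07-601 only and 185 bp for Abcam133638 only. The single peaks inside regions of both had medians of 305 and 290 bp, so part of the length gap comes from merging.

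**Figure D1:**
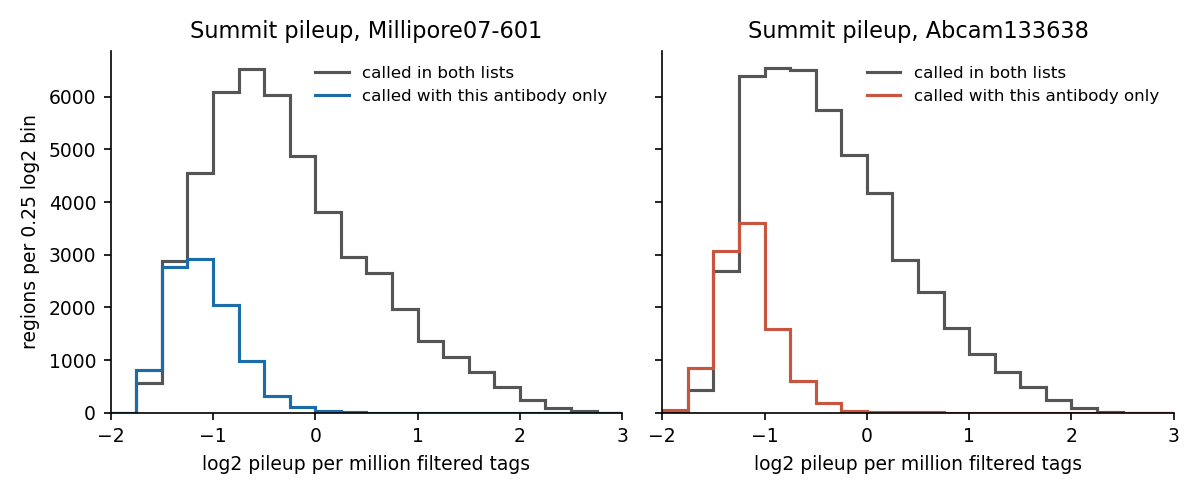
Number of regions (y axis, per 0.25 log2 bin) by log2 summit pileup in RPM (x axis) in the Millipore07-601 library (left) and the Abcam133638 library (right), for regions called in both lists (grey) and with that antibody only (colour). The single-antibody regions sit at the low end, with medians of 0.465 and 0.424 RPM, but overlap the lower part of the regions of both.

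The classes were also set beside the peak lists of the other antibodies, which the classes did not use. A peak of Abcam133737 or Abcam76013 overlapped 85.6% of the regions of both (85.2% to 85.9%), 22.8% of Millipore07-601 only (22.0% to 23.7%) and 24.9% of Abcam133638 only (24.0% to 25.7%). The height of a region of both is here the mean of its libraries, and that of a single-antibody region is the value of its 1 library. Between 0.45 and 0.5 RPM the shares were 58.7%, 21.9% and 25.7%. Between 0.6 and 0.8 RPM they were 90.5%, 34.95% and 39.9%. Regions of both had already passed in each library, so these bands do not match the classes in full. In a single-antibody region the other library has no listed value, and 8.12% of Millipore07-601 only and 11.4% of Abcam133638 only lay within 200 bp of a peak of the other list, just outside the overlap rule. The median gap to the nearest peak of the other list was 4.23 kb and 3.02 kb.

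Where both antibodies gave a peak, their heights were close. The ratio of pileup in RPM, Millipore07-601 over Abcam133638, had a median of 1.09 with quartiles of 0.929 and 1.26 over the 46956 regions and ran from 0.282 to 2.97. A ratio over 1.5 was found in 3335 regions (7.1%) and one under 1/1.5 in 1140 (2.43%). This balance depends on the scaling. Divided by each library's own median the counts were 1754 against 2065, and per bp of fragment length 1859 against 1988. Total tags gave 2197 against 1689 and the authors' fold enrichment 2464 against 2132. Whether more regions tilt to Millipore07-601 or to Abcam133638 thus differs between scalings, and single ratios below are per filtered tags. With regions put in 5 groups of equal size by mean pileup, the median ratio was 1.17 in the highest group (from 1.27 RPM) and 1.04 in the lowest.

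**Figure D2:**
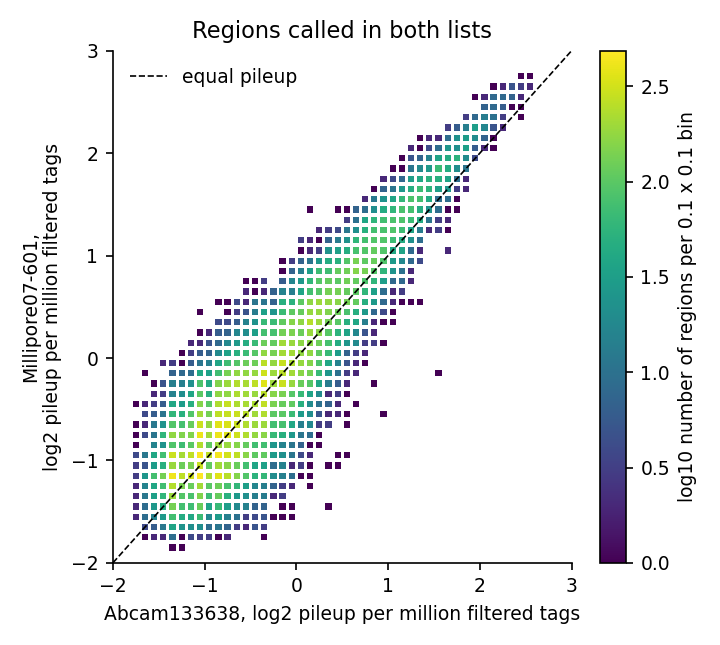
Log2 pileup (RPM) in the Millipore07-601 library (y axis) against the Abcam133638 library (x axis) for the 46956 regions called in both lists, with colour for the log10 number of regions per bin and a dashed line at equal pileup. Most regions lie near the line, with a median ratio of 1.09, and the few isolated bins far below it are regions such as Hdgf and Ranbp6.

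The strongest regions were found with both antibodies. The highest lay inside Slc26a9, an epithelial chloride transporter gene (chr1:131763872-131765115), with 284 Millipore07-601 tags and 255 Abcam133638 tags. Its pileup was 6.60 and 5.70 RPM, a ratio of 1.16 (0.975 to 1.38), and Abcam133737 and Abcam76013 gave 4.79 and 4.50. The order of the antibodies there, with Millipore07-601 highest and Abcam133638 next, was that of most strong regions. Among the 10 highest were regions inside Atf6, a sensor of unfolded protein, Ltbp2, an extracellular matrix gene, Tnrc6a and Dnajb4, and next to Kcnj15, a potassium channel gene. Their ratios were between 1.03 and 1.23. Also among the 10 were 2 adjacent regions 106 kb and 107 kb from Esp38, where 264 to 269 tags stood over a local background of 103 to 170 tags, so that the fold was only 1.55 to 2.57 in spite of the height.

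The NKX2-1 gene itself gave nearly equal values. Within 10 kb of the ends of Nkx2-1 on chromosome 12 lay 11 regions, 8 called in both lists, 2 with Millipore07-601 only and 1 with Abcam133638 only. The strongest, inside the gene and 1673 bp downstream of its start (chr12:56534904-56535744), had 122 Millipore07-601 tags and 124 Abcam133638 tags, a ratio of 1.02 (0.791 to 1.33). The region 648 bp upstream of the start had 57 and 55 tags, and one 7363 bp downstream of the start, past the end of the gene, had 68 and 62. The 3 single-antibody regions had 25, 16 and 15 tags, and the 3 weakest regions of both had 18 or 19 Millipore07-601 tags and 18 to 22 Abcam133638 tags.

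Transcription starts separated the antibodies. Of the regions called with Abcam133638 only, 24.1% (23.2% to 24.9%) had their summit within 1 kb of a start of a protein-coding gene, against 8.21% (7.67% to 8.78%) of those called with Millipore07-601 only. Regions of both lay between, at 19.1% (18.8% to 19.5%). The reference gives 21262 starts of 17491 genes and none on chromosome 18, so these shares leave out that chromosome. Regions at starts not listed elsewhere count as further away, here and in all measures by starts below. A region 98 bp from an end of Ppm1l, for example, lay 94.4 kb from the nearest listed start. Counted over all regions by the nearer gene end, whichever end it is, the shares within 1 kb were 27.3%, 10.7% and 21.6% in the same order. The regions more than 1 kb from a gene end were split into those inside genes and those outside. Inside lay 53.2% of all regions of Millipore07-601 only, 45.2% of Abcam133638 only and 47.4% of both. Outside lay 36.1%, 27.5% and 30.9%. With the share near gene ends these make up the whole of a class. Both are thus higher where that share is lower, and they mark no separate preference for gene bodies. The median distance to a start was 32.4 kb for Millipore07-601 only, 16.4 kb for Abcam133638 only and 21.8 kb for both. The share of Millipore07-601 only depends on how regions are matched: it was 15.8% with a reciprocal overlap of 50% and 15.4% when summits had to lie within 100 bp, with 26.5% and 26.2% for Abcam133638 only under the same rules.

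The gap at starts was also present between the single-antibody classes in bands of pileup. Between 0.45 and 0.5 RPM, 7.28% of Millipore07-601 only and 23.6% of Abcam133638 only lay within 1 kb of a start. Between 0.6 and 0.8 RPM the shares were 5.87% and 31.1%, further apart than at lower pileup. From 0.8 RPM upwards they were 3.21% of 218 regions and 24.35% of 115 (16.8% to 33.2%), so the gap did not widen further. Within the Abcam133638 class, regions at starts and away from them had the same median fold (4.10), and 25.3% and 24.6% were called with either of the other antibodies.

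Summits also differed in where they lay around the start. In regions of both, 12.3% of all summits fell within 200 bp of a start, 3.03% lay 200 to 800 bp upstream and 2.64% lay 200 to 800 bp downstream. Of Abcam133638 only, 11.6% fell within 200 bp, 3.27% (2.93% to 3.65%) lay 200 to 800 bp upstream and 7.55% (7.03% to 8.09%) lay 200 to 800 bp downstream. Downstream regions were therefore 2.31 times as many as upstream ones in the Abcam133638 class, against 0.873 times in regions of both and 1.54 times (258 against 168) in Millipore07-601 only. The 736 downstream regions of Abcam133638 only were as weak as the rest of their class (median 0.424 RPM), and 22.4% of them were called with either other antibody. For 361 of them (49.05%) the same gene had a region of both within 200 bp of its start, and for 142 of the 258 of Millipore07-601 only (55.0%). Over all 17491 genes with a start, 44.6% had a region of both within 1 kb of it, a wider window. The share within 200 bp over all genes was not counted, so these shares mark no trait of the downstream regions. The strongest by fold lay 330 bp downstream of the start of Hexdc, which encodes a hexosaminidase (42 tags, fold 9.27), 274 bp downstream of Dnajc24 (35 tags, fold 7.76) and 460 bp downstream of Tnrc6c, a microRNA silencing factor gene (33 tags, fold 7.33). The flanks compared here were chosen after the profile was seen.

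**Figure D3:**
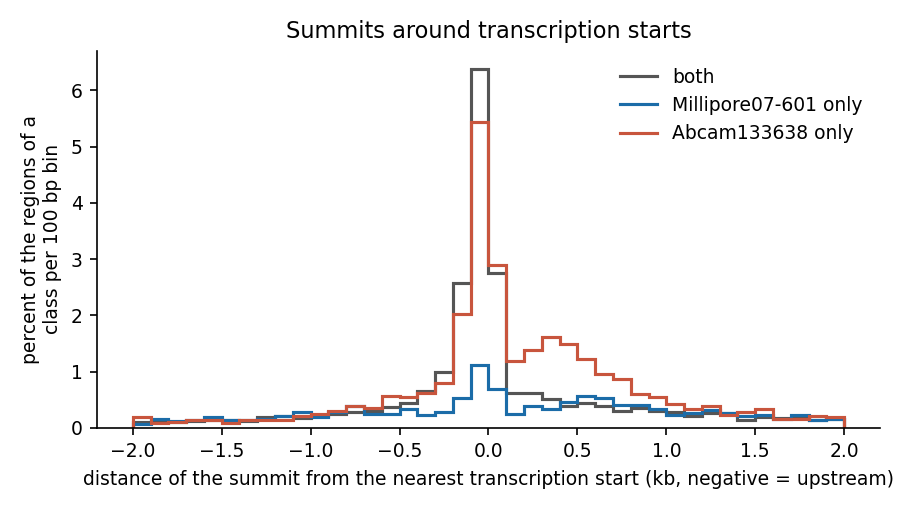
Percent of the regions of each class per 100 bp bin (y axis) by distance of the summit from the nearest transcription start in kb (x axis, negative upstream), for regions of both (grey), Millipore07-601 only (blue) and Abcam133638 only (red). Abcam133638 only follows the regions of both at the start and exceeds them downstream, with 7.55% of its summits 200 to 800 bp downstream against 2.64%, while Millipore07-601 only has a low maximum at the start.

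The same contrast appeared in regions that both antibodies called, which do not depend on a peak being missed. The median ratio of Millipore07-601 to Abcam133638 was 0.966 in the 8670 regions within 1 kb of a start, 1.10 at 1 to 10 kb, 1.11 at 10 to 50 kb and 1.13 beyond 50 kb. The ratio near starts divided by that further away was 0.865, which a scaling of whole libraries cannot change. By fold enrichment it was 0.869, but fold is hardly a separate measure here. The median background under it was the genome-wide 3.73 and 3.64 tags both near starts and further away. Whether input signal at starts plays a part was not tested. Regions within 1 kb of the far end of a gene, with the start more than 1 kb away, had a median ratio of 1.09 (848 regions), against 1.09 over all regions. The gap held in each of the 5 groups by mean pileup: 0.954 near starts against 1.04 away in the lowest group, and 1.04 against 1.19 in the highest. The quartile ranges of the regions near starts (0.825 to 1.12) and further away (0.957 to 1.29) overlapped, so the ratio does not separate them. Whether all regions near starts shifted or only some was not tested. Around the start the median was 0.946 within 200 bp, 1.01 at 200 to 800 bp upstream and 0.983 at 200 to 800 bp downstream.

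Read the other way, the share of regions near a start fell steadily with the ratio. The summit of a region of both was taken from the library with the higher RPM. Position and ratio are therefore not read independently, here and in the ratios by distance above. Of the regions with a ratio under 1/1.5, 45.8% (42.8% to 48.8%) lay within 1 kb of a start, and of those over 1.5, 6.74% (5.89% to 7.67%). The bands between gave 36.4%, 26.2%, 16.2% and 9.24%.

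**Figure D4:**
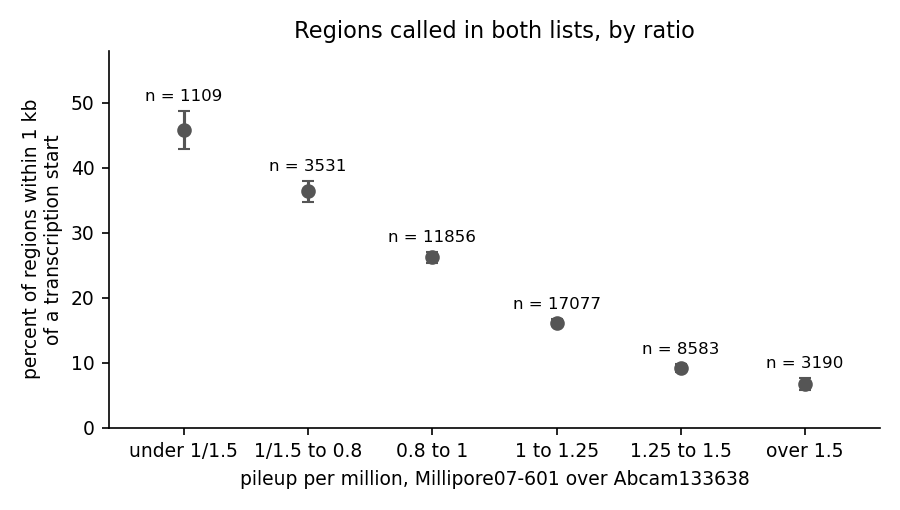
Percent of regions called in both lists that lie within 1 kb of a transcription start (y axis) by band of the pileup ratio, Millipore07-601 over Abcam133638 (x axis), with exact intervals for counting error and the number of regions per band. The share falls from 45.8% in the lowest band to 6.74% in the highest.

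The other antibodies served as a reference. In the 31695 regions called with all 4 antibodies, Millipore07-601 stood over the mean of Abcam133737 and Abcam76013 by a median factor of 1.38 near starts and 1.497 further away. Abcam133638 stood over the same mean by 1.43 near starts and 1.31 away. Near starts Millipore07-601 was thus lower and Abcam133638 higher relative to the shorter lists, and the ratio of Abcam133737 to Abcam76013 themselves was 0.998 and 0.978. Where the ratio of the compared antibodies was under 1/1.5, Millipore07-601 was level with the other lists (1.01) and Abcam133638 was 1.71 times their mean. Where it was over 1.5, Abcam133638 was near them (1.07) and Millipore07-601 was 1.77 times their mean. A choice by the ratio favours a high value of the one library and a low value of the other.

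The regions of lowest ratio lay mostly at promoters. Among the 23522 regions of both with at least the median pileup (0.741 RPM), 8 of the 10 lowest ratios lay within 1 kb of a start, and none of the 9 highest for which a start was listed on the chromosome (18.4% of all such regions did). Over the 100 lowest the count was 52 of 98, and over the 100 highest 3 of 94. The ratios chose these regions, and the values of the other antibodies did not. At Hdgf (chr3:87905803-87906474) the libraries had 40 tags with Millipore07-601, 131 with Abcam133638, 30 with Abcam133737 and 29 with Abcam76013. Abcam133638 was thus alone in its height there, and its ratio to Millipore07-601 corresponds to 0.318 (0.217 to 0.456) for Millipore07-601 over Abcam133638. At Ranbp6 (chr19:29812893-29813245) there were 16 and 59 tags, a ratio of 0.282 (0.152 to 0.497), with no peak of the other antibodies. Around the start of Fam8a1, a gene of protein degradation at the endoplasmic reticulum, the tags were 21, 62, 27 and 26 in the same order of antibodies. At 1278 bp upstream of Foxo3, a forkhead factor of stress responses, they were 30, 88, 30 and 23. The other 6 were Ppm1l, a protein phosphatase gene, Trim62, a ubiquitin ligase gene, Usp12, a deubiquitinase gene, Abcd3, a peroxisomal transporter gene, Gsn, which encodes the actin-severing gelsolin, and Fubp3, with ratios of 0.363 to 0.421. In the top 10% of regions by mean pileup (from 1.755 RPM) the lowest ratios after Hdgf were at Kmt2a, a histone methyltransferase gene (63 against 117 tags, ratio 0.560), Maml3, a Notch coactivator gene (0.582), Rcan1, a calcineurin regulator gene (0.668), and Actb, the cytoplasmic actin gene (0.673). Erbb2, a growth factor receptor gene of epithelium, was eighth with 68 against 98 tags (0.722, 0.522 to 0.994). That set was chosen after values were seen.

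The regions of highest ratio lay away from starts. Of the 10, 7 lay inside genes, and of the 1000 highest and 1000 lowest ratios 569 and 551 did, beside 13468 of all 23522. Inside Phlpp1, which encodes a phosphatase that acts on AKT (chr1:106204349-106204644), the libraries had 58 tags with Millipore07-601, 22 with Abcam133638, 23 with Abcam133737 and 31 with Abcam76013. The ratio was 2.74 (1.65 to 4.71), and the last 3 values lay close together. Inside Nectin3, a cell adhesion gene (chr16:46495223-46495550), the tags were 63, 25, 24 and 27. A stronger region 14 kb upstream of H60c (chr10:3281108-3281957) had 114, 48, 49 and 50 tags, a ratio of 2.47 (1.75 to 3.54). Others lay inside Lrba, Synrg, Tbcel, Carmil1, an actin capping regulator gene, and Grhl2, an epithelial transcription factor gene. The rest lay outside genes, 11.7 kb from Mbip and 74.1 kb from Spink5. The ratios of all these were 2.34 to 2.48. Of all regions with at least the median pileup that Abcam133737 or Abcam76013 called, Millipore07-601 stood above these in 97.0% and Abcam133638 in 92.0%, so a Millipore07-601 value above theirs is usual. The median pileup in RPM over the 10 was 1.255 with Millipore07-601 and 0.491, 0.601 and 0.646 with Abcam133638, Abcam133737 and Abcam76013. The 10 were chosen for a high Millipore07-601 and a low Abcam133638 value.

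Single-antibody regions ranked by height were mostly places of high local background. Of the 10 highest of Millipore07-601 only, 9 had a local background over 20 tags, and of the 10 highest of Abcam133638 only, 10 did. The class medians, 3.73 and 3.64 tags, were again the genome-wide values. The highest of Millipore07-601 only, inside Aida and 2.00 kb from Brox, had 253 tags over a background of 194 (fold 1.30). The highest of Abcam133638 only, 17.4 kb from Csf2ra, had 149 tags over 109 (fold 1.36). In each class 5 of the 10 lay inside or next to Sfi1 on chromosome 11. Such backgrounds were rare, at 16 of 10013 and 36 of 10061 regions.

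The classes were also ranked by fold enrichment, an order chosen after these values were seen. Of the 12 highest of Abcam133638 only, 9 lay within 1 kb of a start, beside 24.1% of that whole class. Of the 12 highest of Millipore07-601 only, 0 did, beside 8.21% of that class, so this count is close to the class share. For Abcam133638 only they began with Ppfia3 (65 tags, fold 14.2), a region inside Ctdspl2 that is 300 bp upstream of a listed start of Mageb3 (72 tags, fold 14.0), Ptpn9 (48 tags, 10.6) and Nfkb2 (47 tags, 10.35), followed by Shisa5 and Cdyl, a chromodomain gene. The promoters of Ppfia3, Ptpn9 and Nfkb2 are those printed above. For Millipore07-601 only they were inside Gphn, the gephyrin gene (52 tags, fold 10.5), inside Ccdc88c (47 tags, 10.15), inside Luzp1 (54 tags, 9.86) and 30.4 kb from Dusp6, a phosphatase gene of the MAP kinase pathway (44 tags, 9.52). Of these 12 regions of each class, 11 of Millipore07-601 only and 8 of Abcam133638 only were called with at least 1 other antibody, and 7 and 1 with both. A missing call of the other antibody defines each class, and these are 12 regions picked from each. From 0.8 RPM upwards, on chromosomes with listed starts, the classes were alike in calls with either other antibody. The shares were 40.4% of 218 regions of Millipore07-601 only and 41.7% of 115 of Abcam133638 only.

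CpG content rose with the tilt towards Abcam133638. Over 32851 RefSeq promoter windows of all gene types, 9403 overlapped a region of both, 1472 a region of Abcam133638 only and 359 a region of Millipore07-601 only. Windows were counted, not regions, and a window with any region of both was counted only there. The median number of CpG per 300-base window was 24, 21 and 12 for Abcam133638 only, both and Millipore07-601 only, and 7 over all windows. Median GC content was 64.5%, 61.3% and 55.7%, and 52.7% over all windows. Of the windows with 0 to 4 CpG, 57 held Abcam133638 only and 66 held Millipore07-601 only, a ratio of 0.864. That ratio was 1.74 at 5 to 9 CpG, 3.25 at 10 to 19, 5.89 at 20 to 29 and 13.4 at 30 to 67, where 511 windows held Abcam133638 only and 38 held Millipore07-601 only. The heights of shared regions followed the same order, with median ratios of Millipore07-601 to Abcam133638 of 1.09, 1.04, 0.986, 0.942 and 0.908 from the CpG-poorest to the CpG-richest windows. GC content moved with CpG content, and its part in this result was not tested.

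**Figure D5:**
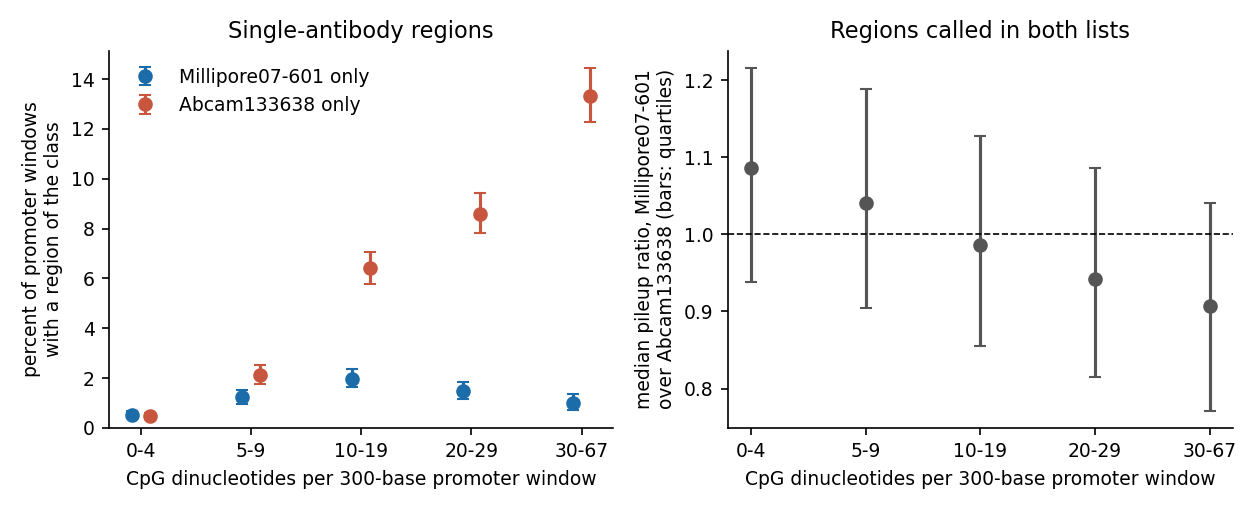
Left, percent of promoter windows by number of CpG per 300-base window, with exact intervals for counting error. The windows hold a region of Millipore07-601 only (blue) or Abcam133638 only (red) and none of both. Right, median pileup ratio, Millipore07-601 over Abcam133638, of regions of both at these windows, with quartiles as bars and a dashed line at 1. The Abcam133638 share rises to 13.3% in the CpG-richest windows, where the Millipore07-601 share is 0.990%, and the median ratio falls from 1.09 to 0.908.

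Short matches to sequences bound by NK2-type homeodomains were counted in the same windows. The letters searched, on both strands, were first CAAGTG, then CTCAAG, with CAAGAG as the other, and matches can overlap since all contain CAAG. At least 1 of them was present in 39.1% of all windows, in 35.5% of those with a region of both, 37.3% with Millipore07-601 only and 29.2% with Abcam133638 only. Since CpG-rich windows hold fewer such letters, shares are also given at similar CpG content. With 20 or more CpG they were 28.3% (both), 29.4% (Millipore07-601 only, interval 21.0% to 38.9%), 22.3% (Abcam133638 only, 19.6% to 25.1%) and 22.8% in windows without a region. With 0 to 9 CpG they were 52.4%, 44.3%, 50.0% and 44.3%. Of the printed windows, Acox2 holds CAAGAG, Ulk1 holds CTCAAG and the others none of the 3. Sequence of regions away from promoters was not analysed here.

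By gene, 62.5% of 21883 protein-coding genes had a region of both within 10 kb of a gene end, 20.5% a region of Millipore07-601 only and 28.3% one of Abcam133638 only, and 31.2% had none. Genes whose regions were all of a single class were few, at 1.96% for Millipore07-601 only, 3.59% for Abcam133638 only and 0.754% with regions of each single class but none of both. Counted at starts, 1042 of 17491 genes (5.96%) had a region of Abcam133638 only and none of both within 1 kb, and 274 (1.57%) had one of Millipore07-601 only and none of both.

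Genes of the lung epithelium were found with both antibodies. A region of both lay within 10 kb of 29 of 30 AT1 genes, 30 of 30 AT2 genes, 28 of 30 general epithelial genes, 11 of 15 airway secretory genes and 14 of 15 multiciliated cell genes, beside 62.5% of all genes. The strongest AT1 region lay inside Col4a4 and within 10 kb of Col4a3, which encode type IV collagen chains of the basement membrane, with 250 Millipore07-601 and 225 Abcam133638 tags, a ratio of 1.16 (0.962 to 1.39). Next came a region within 10 kb of Akap5, an anchoring protein gene, with 232 and 186 tags (1.30, 1.07 to 1.58). That region lay inside Mthfd1, 1.06 kb from an end of it. Nearness assigns no target, in this list and the others. The strongest AT2 regions were 134 bp upstream of Cxcl15, the lungkine gene, with 225 and 206 tags (1.14, 0.937 to 1.38), and inside Lgi3 next to Sftpc, the surfactant protein C gene, with 202 and 173 tags (1.22, 0.987 to 1.497). Esrp2, an epithelial splicing factor gene, had 147 and 127 tags. Tppp3 and Dynlrb2, genes of multiciliated cells, had 196 and 168, and 162 and 149 tags. Aldh1a7, a secretory cell gene, departed from these, with 162 Millipore07-601 and 106 Abcam133638 tags (1.59, 1.24 to 2.05). The best regions of Pdpn, the AT1 gene of podoplanin (88 and 45 tags, 2.04, 1.41 to 2.98), and of Rfx3, a ciliogenesis factor gene (97 and 50 tags, 2.02, 1.42 to 2.90), departed further. Scgb1a1, the club cell secretory protein gene, had 105 tags with each.

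Median ratios over all regions of both near a list's genes were 1.07 for AT1 (129 regions), 1.12 for AT2 (152), 1.04 for general epithelial (122), 1.07 for secretory (34) and 1.00 for multiciliated genes (32), beside 1.09 for all regions. These medians mix regions at starts and away from them. More than 1 kb from a start they were 1.12, 1.14, 1.04, 1.09 and 1.07 in the same order, beside 1.12 for all such regions. Regions of Millipore07-601 only and Abcam133638 only lay near 17 and 17 of 30 AT1 genes, 19 and 22 of 30 AT2 genes and 16 and 20 of 30 general epithelial genes, beside 20.5% and 28.3% of all genes. Near secretory genes they numbered 3 and 3 of 15 and near multiciliated genes 5 and 5 of 15, closer to those shares. Only Igfbp2 among AT1 genes, which encodes a binding protein of insulin-like growth factors, lacked a region of both while having a single-antibody one, with 24 Millipore07-601 tags 8.99 kb upstream of its start. Ehf, an epithelial ETS factor gene, had 3 regions of Millipore07-601 only (18 to 26 tags) and 2 of Abcam133638 only (19 and 23 tags). Of these, 24 Millipore07-601 tags 66 bp from a gene end and 19 Abcam133638 tags 469 bp from it lay side by side without overlap. Muc5ac, a mucin gene, had 18 Abcam133638 tags.

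YAP, TAZ and TEAD are the effectors of Hippo signalling that respond to cell shape and stretch. A region of both lay near 22 of 26 genes of their list, beside 62.5% of all genes. The median ratio was 1.01 over 77 regions, beside 1.09 for all regions. Of the 77, 35.1% lay within 1 kb of a start, beside 19.1% of all regions of both. The 50 further away had a median of 1.03, beside 1.12 for all regions further away. Tead3 had 203 Millipore07-601 and 188 Abcam133638 tags (1.12, 0.917 to 1.38), and Wwc1, a Hippo activator gene also called Kibra, had 171 and 124 (1.44, 1.13 to 1.82). Single-antibody regions alone were found at Amot (15 Abcam133638 tags), Ankrd1 (18 Abcam133638 tags) and Lats2, the Hippo kinase gene. Lats2 had 2 regions of Millipore07-601 only with 18 and 19 tags, and 2 of Abcam133638 only with 25 tags 44 bp upstream of its start and 21 tags 1413 bp downstream.

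Genes of other lung cells had fewer regions of both, at 12 of 27 mesenchymal, 12 of 25 endothelial and 8 of 28 immune genes, beside 62.5% of all genes. Those without any region numbered 11, 11 and 18, beside 31.2% of all genes. Mesenchymal genes had a region of Abcam133638 only in 9 of 27 and of Millipore07-601 only in 3 of 27, beside 28.3% and 20.5%. Pdgfra, a growth factor receptor of fibroblasts, Myh11, the smooth muscle myosin gene, and Fn1, the fibronectin gene, had Abcam133638 regions of 20, 21 and 25 tags and no region of both. Cspg4, a pericyte marker, had 19 Abcam133638 tags 74 bp upstream of its start and 21 Millipore07-601 tags elsewhere. Among endothelial genes, Tek, the angiopoietin receptor, had 22 Abcam133638 tags 6.4 kb upstream and 17 Millipore07-601 tags elsewhere, and Tal1 had 17 Abcam133638 tags. Among immune genes, Ccr2 had 21 Millipore07-601 tags and Cd4 had 16 Abcam133638 tags. These single-antibody regions had 16 to 25 tags, where the lowest called pileup was 12 or 13. The highest values near these lists were in regions of both at Myocd and Twist2, mesenchymal transcription factor genes (114 and 96, and 114 and 94 tags), at Gpihbp1 and Esam, endothelial surface protein genes (119 and 106, and 108 and 88), and at Fcer1g and Cd79a, immune receptor genes (182 and 129, and 158 and 150). The Cd79a region was nearest to Rps19. The Fcer1g region lay inside Apoa2, and nearness assigns no target.

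Housekeeping genes had regions of both antibodies and tilted towards Abcam133638. A region of both lay within 10 kb of 24 of 25, beside 62.5% of all genes. Over their 68 regions the median ratio was 0.922, the lowest of the 10 lists, beside 1.09 for all regions. Of these regions 54.4% lay within 1 kb of a start, against 14.3% to 36.8% in the other lists. The 31 further away had a median of 0.903, beside 1.12 for all regions of both further away. This list was thus low away from listed starts too, although not every start is listed. A median for its regions at starts alone was not computed. Rplp0, a ribosomal protein gene, had 77 Millipore07-601 and 99 Abcam133638 tags 36 bp upstream of its start (0.809, 0.593 to 1.10). Inside Actb there were 64 and 99 tags (0.673, 0.483 to 0.931), with 60 and 54 tags of Abcam133737 and Abcam76013.

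By chromosome, regions of Millipore07-601 only outnumbered those of Abcam133638 only most on X (238 against 160, a ratio of 1.49, with a median height ratio of 1.15 in regions of both) and, among the autosomes, least on chromosome 7 (524 against 647, 0.810). Chromosome 11 had the lowest median height ratio among the autosomes, at 1.05. The share of regions within 1 kb of a gene end was 24.4% on X, 25.5% on chromosome 7 and 25.4% on chromosome 11.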

How the data were processed

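The values used were the peak tables of 4 NKX2-1 antibodies, 1 library each, from lung tissue of wild-type mice on postnatal day 10. Peak calling was done by the authors with MACS 2.1.2, per the file headers, each time with the same input as control, a q threshold of 0.05, 1.87 Gb as effective genome size and redundant tags discarded. The submitters' processing notes also name FastQC, Trimmomatic, Bowtie, SAMtools and deepTools and the build mm10. The deposited columns, per the file headers, are position, summit, pileup signal in tags, −log10 of the p-value and of the q-value, and fold enrichment. That fold is a ratio of pileup to local background with 1 tag added to each.

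Heights were compared between libraries per 1000000 filtered tags (43031331 and 44777214). Python 3.11.15 with numpy 2.4.6, pandas 2.3.3, SciPy 1.17.1 and matplotlib 3.10.9 was used. Peaks were merged at 1 bp, with the highest pileup of each library kept per region, and local background was recovered from pileup and fold. The summit of a region of both was that of the library with the higher RPM. Genes were 21883 protein-coding genes of RefSeq GRCm38.p6. Starts came from its promoter table (21262 starts of 17491 genes, none on chromosome 18), so 2266 regions there enter no measure by starts. All 251 genes of the 10 lists matched, 176 with a start. Merging, nearest points, overlaps and ratio intervals were checked on simulated data. No test between antibodies was run, since each has 1 library. The comparison and the gene lists were chosen with earlier results of these data known. Named were Nkx2-1, the 10 regions of both of highest mean pileup and the 10 of highest and of lowest ratio at or above the median pileup, the 10 highest regions of each single-antibody class, the 2 strongest genes of each list, and list genes with single-antibody regions only. Other genes, the ranking by fold, the flanks of starts, the top 10% of pileup and the printed promoters were chosen after values were seen. Alternatives were other overlap rules, stricter thresholds, other scalings and other distances.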

Additional observations from a re-analysis of the deposited data

How the results depend on the processing

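No paired analysis was possible because each antibody has 1 library. Of 106 alternative values, 49 stayed within counting error or, for counts, within 1.5 times, and 57 moved. The balance of regions over 1.5 and under 1/1.5 turned by library median and by fragment length, and the order of the single-antibody class sizes, which were nearly equal, turned where peaks were filtered by fold or chosen by −log10 q as given next. Class sizes (both, Millipore07-601 only, Abcam133638 only) were 29702, 6461 and 5782 with a fold of at least 5 in both lists and 16751, 3170 and 3155 for the 20000 peaks of highest −log10 q of each list. With a −log10 q of at least 5 set against any peak of the other list, 6636 and 6496 single-antibody regions were left. The median ratio was 1.04 by total tags, 1.02 by each library's median, 1.03 by fold and 1.02 per bp of fragment length. Regions over 1.5 numbered 2197, 1754 and 1859 by total tags, library median and fragment length, and those under 1/1.5 numbered 2065, 2132 and 1988 by library median, fold and fragment length. Their shares within 1 kb of a start by library median, fold and fragment length were 5.71%, 8.94% and 5.67% over 1.5, and 42.2%, 37.8% and 42.5% under 1/1.5. Median lengths of single Millipore07-601 and Abcam133638 peaks in regions of both were 305 and 290 bp.

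The share of regions within a distance of a start (both, Millipore07-601 only, Abcam133638 only) was 22.6%, 12.0% and 28.1% at 2 kb and 28.8%, 18.7% and 34.5% at 5 kb. At 1 kb it was 18.2%, 15.8% and 26.5% with a reciprocal overlap of 50%, and 18.3%, 15.4% and 26.2% with summits within 100 bp. For the 20000 highest peaks it was 17.5%, 9.81% and 36.4%. It was 18.6% for both without predicted genes, 9.48% and 29.6% for the single-antibody classes with a fold of at least 5, and 25.0% for Abcam133638 only with a −log10 q of at least 5. With that q against any peak Millipore07-601 only gave 6.59%, and at a pileup of 0.4 to 0.6 RPM the single-antibody classes gave 7.13% and 23.0%. Abcam133638 only stayed above Millipore07-601 only in all of these. Settings with a q, fold, overlap or pileup rule for this share, the scaling by fragment length and the ranking by fold were chosen after seeing the data. Genes near Millipore07-601 only and Abcam133638 only numbered 1834 and 3584 at 2 kb and 10301 and 11554 at 50 kb. Calls with either other antibody were 82.7%, 20.7% and 21.3% for the 3 classes with summits within 100 bp, and 65.8% for both and 26.2% for Abcam133638 only at a pileup of 0.4 to 0.6 RPM. The cause of these moves was not tested. Near the caller's limit of 12 or 13 tags, a region missing from a list is not shown to be unbound.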
